A study of Mus musculus with 9 samples.

Results

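The genes of the respiratory chain, also called oxidative phosphorylation, were followed in mouse prostate cancer cells given NRG1, with the nuclear genes set against those of the mitochondrial genome. They were chosen by name alone: every gene in the table whose symbol belongs to the Nduf, Sdh, Uqcr, Cox4 to Cox8 or Atp5 subunit families of complexes I to V or starts with mt-. Cyc1, a complex III subunit with another kind of name, is therefore no member and is described with the electron carriers. The rule found 96 of the 15552 genes in the table, 83 of them nuclear and 13 mitochondrial. By complex, the nuclear members were 36 genes of complex I, 4 of complex II, 8 of complex III, 18 of complex IV and 17 of complex V. The mitochondrial members were 7 genes of complex I, 1 of complex III, 3 of complex IV and 2 of complex V. Ndufa4 and Ndufa4l2 were counted with complex IV, where their proteins are known to sit despite the name.

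MyC-CaP is a prostate cancer line from a mouse tumor driven by MYC. The cells were starved in medium without serum or calcium and then received NRG1 as a recombinant protein, which binds the receptor HER3, at 15 ng/mL. RNA was taken at 0, 12 and 24 h, with 3 libraries labelled as biological replicates at each time, all from the same line and the same well format. No NRG1-free cells of the later times were analysed here, which means that NRG1 and a longer stay in starvation medium cannot be told apart.

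The respiratory chain passes electrons from NADH (complex I) or succinate (complex II) through complexes III and IV to oxygen, and complex V, the ATP synthase, uses the proton gradient that results to make ATP. Complexes I, III, IV and V are built from the products of both genomes, while complex II is wholly nuclear. The mitochondrial genome is transcribed inside the organelle as long precursors from both of its strands, which are then cut into single messenger RNAs, whereas each nuclear subunit has a promoter of its own.

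The 9 libraries held from 28467089 to 39239760 counts, and 11373 genes had enough counts to be tested. Values are CPM, a gene's counts scaled by edgeR to a common library size after TMM normalization, and differences are log2 fold changes from edgeR's quasi-likelihood test. A gene passed when its p, adjusted by Benjamini-Hochberg over all 11373 genes, was at most 0.05, and it was called when its change was also at least 1.5-fold. As a check of the label, the keratin gene Krt8 lay between 17.3 and 26.2 CPM and Myc between 54.5 and 76.1 CPM, but the epithelial genes Epcam, Cdh1 and Krt18 did not exceed 0.491 CPM in any library. Among the 5 fibroblast, 4 immune, 3 endothelial and 2 muscle markers in the table, Pdgfra lay between 14.8 and 17.7 CPM and no other exceeded 1.21 CPM.

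All 13 mitochondrial members and 78 of the 83 nuclear members had enough counts to be tested. The other 5 nuclear members, Cox4i2, Cox6a2, Cox6b2, Cox7b2 and Ndufa4l2, had at most 8 counts in any library. Cox4i2, Cox6a2 and Cox6b2 are isoforms known from lung, heart and muscle, and testis. Cox8b and Cox8c were not analysed here.

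By their level in these libraries, the mitochondrial genes fell into a high group of 7 and a low group of 6. This grouping was drawn from the data and was not set in advance. Per kilobase of exonic bases at 0 h, the 7 genes mt-Nd1, mt-Nd2, mt-Nd4, mt-Nd5, mt-Nd6, mt-Cytb and mt-Co1 lay between 633 CPM for mt-Nd4 and 3849 CPM for mt-Co1. The 6 genes mt-Co2, mt-Co3, mt-Atp6, mt-Atp8, mt-Nd3 and mt-Nd4l lay between 1.21 CPM per kilobase for mt-Nd3 and 7.99 for mt-Atp6. Divided in the same way, the 78 nuclear members ran from 1.85 for Ndufb2 to 355 for Cox6a1, with a median of 54.4. The length takes in the exons of all annotated transcripts of a gene, 5628 bases for Ndufb2. It can exceed the length of a single transcript, so nuclear values per kilobase can come out too low. So the subunits mt-Co1 and mt-Co2 of the same enzyme, cytochrome c oxidase, were listed at 3849 and 6.95 CPM per kilobase.

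The 6 low genes are neighbors. They lie between bases 7013 and 10173 of the mitochondrial genome (GRCm38), with mt-Co1 on one side and mt-Nd4 on the other. A copy of this stretch is annotated on chromosome 1, as a row of unprocessed pseudogenes in the same gene order between bases 24611535 and 24616197. Every stretch of 100 bases of each mitochondrial gene was looked up in all other annotated transcripts, and a stretch found there was called shared. The copies held 99.9% of the 100-base stretches of mt-Co3, 99.5% of those of mt-Co2 and of mt-Atp6, 98.5% for mt-Nd4l and 97.6% for mt-Nd3. At the edges of the row, 60.8% of the stretches of mt-Nd4 and 30.8% of those of mt-Co1 were shared. For mt-Nd2 the share was 3.19%, with a pseudogene on chromosome 2, and for mt-Nd1, mt-Nd5, mt-Nd6 and mt-Cytb it was 0.

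Aligned over 681 bases, mt-Co2 and its chromosome 1 copy Gm28661 had 0 differences, and mt-Co3 and Gm28437 had 0 over 783 bases. The copy of mt-Nd3, Gm28438, differed at 1 of 345 bases, T3C, counted from 1 at the first base of the gene. Stretches of 100 bases from the GENCODE transcripts are printed to show how little separates the mitochondrial genes from these copies, with the differing base in capitals. They are bases 1 to 100 of mt-Nd3 (chrM:9459-9558, plus strand) and bases 11 to 110 of mt-Co2 (chrM:7023-7122, plus strand), each followed by its copy.
mt-Nd3: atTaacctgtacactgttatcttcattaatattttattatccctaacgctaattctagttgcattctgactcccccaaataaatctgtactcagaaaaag
Gm28438: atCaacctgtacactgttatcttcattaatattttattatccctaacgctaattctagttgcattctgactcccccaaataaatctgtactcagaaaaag
mt-Co2: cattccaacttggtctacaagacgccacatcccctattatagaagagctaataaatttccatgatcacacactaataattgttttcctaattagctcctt
Gm28661: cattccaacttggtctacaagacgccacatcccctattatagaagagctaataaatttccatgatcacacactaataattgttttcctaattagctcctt
Read in pairs, the mt-Nd3 lines part at 1 base and the mt-Co2 lines at none, so a read of this length from mt-Co2 would match both places. How the authors counted reads that match more than 1 place was not stated, and its part in the low counts was not tested. The gene mt-Atp8 was as low, at 1.54 CPM per kilobase, but shared no 100-base stretch with an annotated transcript. It lies between mt-Co2 and mt-Atp6, and the bases between their chromosome 1 copies belong to no annotated transcript and were not compared. The values of all 6 low genes are therefore uncertain. The levels of mt-Nd4 and mt-Co1, with 60.8% and 30.8% of their stretches shared, are open to the same doubt.

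**Figure D1:**
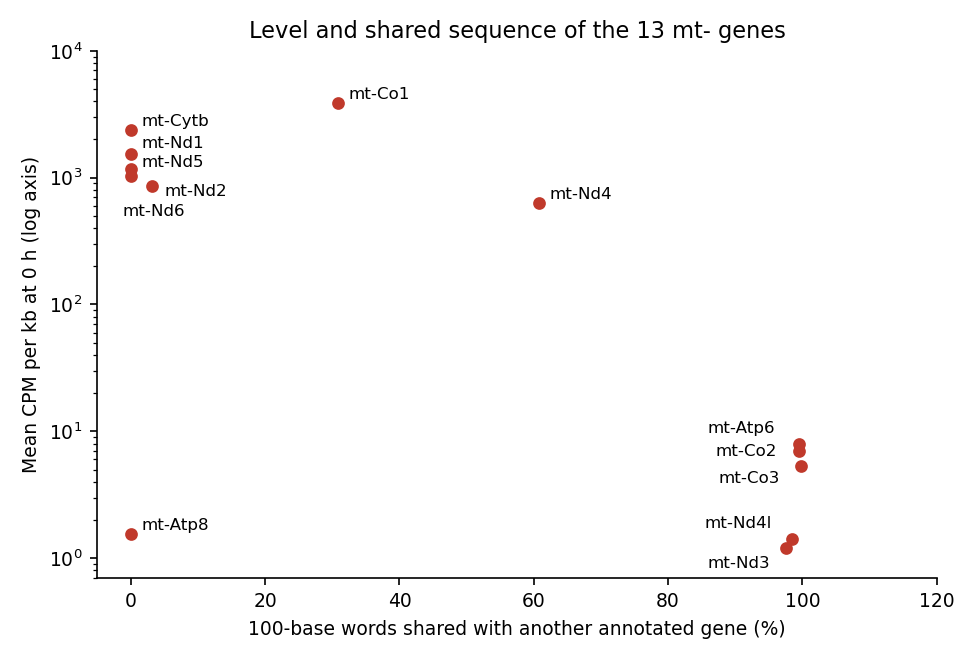
Mean CPM per kilobase at 0 h on a log axis against the percent of 100-base stretches that another annotated gene also holds, 1 point for each of the 13 mitochondrial genes. The 5 genes above 97% shared lie below 8 CPM per kilobase, mt-Atp8 is low with 0% shared, and the other 7 lie at 633 CPM per kilobase or above.

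At 12 h, each of the 7 well-counted mitochondrial genes fell, by 0.30 to 0.37 on the log2 scale, whether its product belongs to complex I, III or IV. The 7 are all of those with at least 10 CPM, and each passed as lower, against 11.9% of all genes tested that were lower at 12 h. Of the 13 mitochondrial members, 7 passed and 13 had a log2 fold change below 0, with a median of -0.33. The median over all genes tested was -0.00 and 50.9% of them were below 0.

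The gene mt-Cytb, which encodes cytochrome b, the mitochondrial subunit of complex III, had 2775, 2627 and 2680 CPM at 0 h, 2038, 2133 and 2172 CPM at 12 h, and 2106, 2399 and 2261 CPM at 24 h. Every library at 12 and 24 h was below every library at 0 h. Its log2 fold change was -0.35 ± 0.04 (SE, n = 3 against 3) at 12 h, with an adjusted p of 2.38e-05, and -0.26 ± 0.04 at 24 h, with an adjusted p of 0.000573.

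The gene mt-Co1 encodes the catalytic subunit of complex IV, the one that carries the site where oxygen is reduced. It took 6293, 5709 and 5840 CPM at 0 h, 4730, 4866 and 4895 CPM at 12 h, and 5069, 5701 and 5294 CPM at 24 h. The libraries at 12 h were the lowest, and the highest library at 24 h lay only just under the lowest at 0 h. mt-Co1 fell by 0.30 ± 0.04 on the log2 scale at 12 h (adjusted p = 0.000115) and by 0.15 ± 0.04 at 24 h (adjusted p = 0.0258). At 24 h it no longer passed without replicate 1 of 0 h (-0.11), replicate 1 of 24 h (-0.11) or replicate 3 of 24 h (-0.14).

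The other 5 well-counted genes encode membrane subunits of complex I. mt-Nd1 had 1468, 1423 and 1505 CPM at 0 h, 1092, 1199 and 1159 CPM at 12 h, and 1226, 1374 and 1314 CPM at 24 h, so that no library of one time overlapped those of another. mt-Nd5, whose product lies at the far end of the membrane arm, had 2222, 2070 and 2104 CPM at 0 h, 1663, 1680 and 1727 CPM at 12 h, and 1705, 1934 and 1798 CPM at 24 h. For mt-Nd4, its neighbor in that arm, the values were 903, 841 and 874 CPM at 0 h, 636, 702 and 687 CPM at 12 h, and 679, 792 and 732 CPM at 24 h. In both, the libraries at 12 and 24 h overlapped each other and lay below those at 0 h. mt-Nd2 lay between 885 and 910 CPM at 0 h, between 706 and 748 CPM at 12 h and between 725 and 817 CPM at 24 h. mt-Nd6 is the only member encoded on the light strand, and it lay between 512 and 564 CPM at 0 h, between 419 and 436 CPM at 12 h and between 440 and 485 CPM at 24 h. Since it was not stated whether the counting used strand, reads of mt-Nd6 and reads of the heavy-strand transcript opposite it cannot be told apart.

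The log2 fold changes of these 5 complex I genes at 12 h were -0.35 for mt-Nd1, -0.31 for mt-Nd2, -0.37 for mt-Nd4, -0.33 for mt-Nd5 and -0.33 for mt-Nd6, with SEs of 0.04 to 0.05. At 24 h they were -0.17, -0.22, -0.25, -0.23 and -0.23 in the same order, and adjusted p ranged from 0.00111 for mt-Nd5 to 0.0148 for mt-Nd1. The mt-Nd1 change at 24 h no longer passed without replicate 3 of 0 h (-0.14), replicate 1 of 24 h (-0.12) or replicate 3 of 24 h (-0.17). Over the 9 fits that each left out 1 library, all 7 genes passed at 12 h in every fit, and 5 genes (mt-Nd2, mt-Nd4, mt-Nd5, mt-Nd6 and mt-Cytb) passed at 24 h in every fit. Both comparisons use the same 3 libraries of 0 h.

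**Figure D2:**
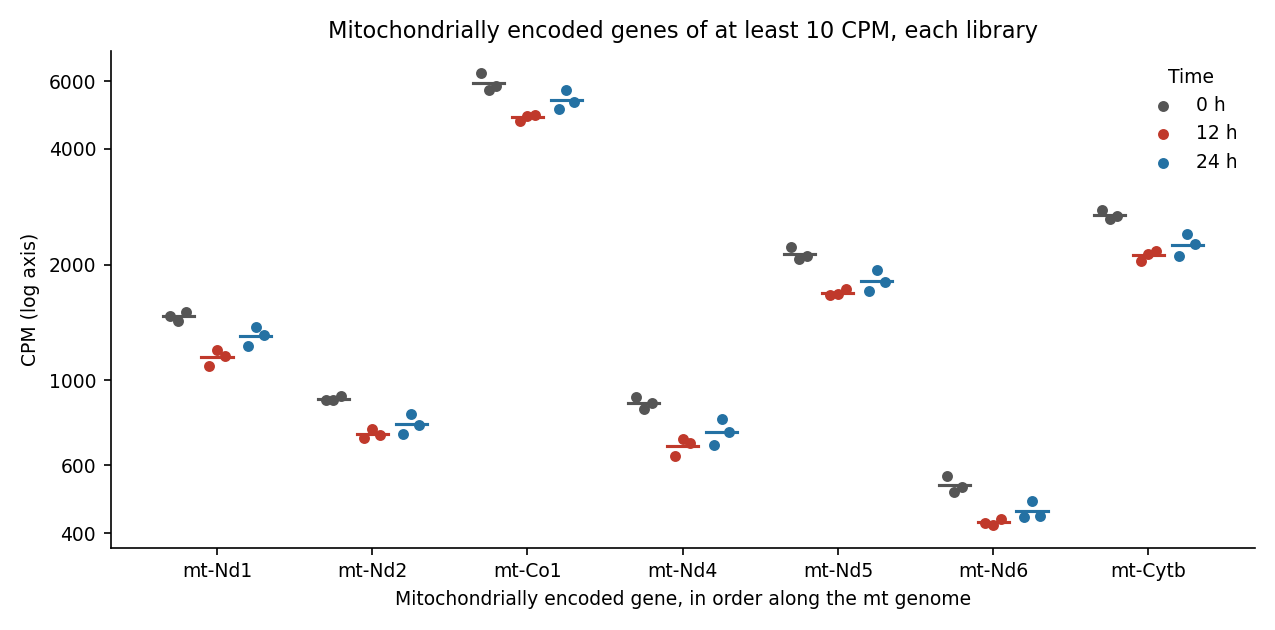
CPM on a log axis for the 7 mitochondrially encoded genes of at least 10 CPM, with 3 libraries per time as points and their mean as a line. In each gene the 0 h libraries lie above all libraries of 12 and 24 h, and the mean at 24 h lies between the other means.

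At 24 h, 7 of the 13 mitochondrial genes passed, all lower than at 0 h, against 7.76% of all genes tested that were lower. Their median was -0.23. Between 12 and 24 h all 7 well-counted genes had a log2 fold change above 0, from 0.09 for mt-Nd2 to 0.18 for mt-Nd1, and their median was 0.10. Only mt-Nd1 passed (0.18 ± 0.04, adjusted p = 0.0255), against 1.97% of all genes tested that were higher. It no longer passed without replicate 1 of 12 h (0.15), replicate 2 of 24 h (0.14) or replicate 3 of 24 h (0.18). For mt-Co1, with 0.15 ± 0.04, the adjusted p was 0.0643 with edgeR, and 2 mitochondrial genes passed with DESeq2.

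The 6 low genes did not pass in any comparison. mt-Atp6, a subunit of the proton channel of the ATP synthase, had 5.75, 5.87 and 4.70 CPM at 0 h, 3.80, 4.44 and 5.19 CPM at 12 h, and 4.39, 4.88 and 5.48 CPM at 24 h, and its groups overlapped. mt-Co2, which takes electrons from cytochrome c, had 5.32, 4.47 and 4.47 CPM at 0 h and 3.02, 3.92 and 4.08 CPM at 12 h, a difference of -0.37 ± 0.14 with an adjusted p of 0.0652. It passed with no filter (-0.37), with the length trend removed (-0.39) and without replicate 3 of 12 h (-0.44). mt-Co3, a core subunit of complex IV, had a log2 fold change of -0.19 at 12 h, with a 95% interval from -0.51 to 0.13. mt-Nd3, mt-Nd4l and mt-Atp8 had 5 to 22 counts per library, and at 12 h their intervals reached from -1.70 to 0.26, from -1.16 to 0.41 and from -1.10 to 0.82. At this depth, a change of the size seen in the other 7 genes was not detectable in these 3.

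Most nuclear genes kept close to their level at 0 h. At 12 h, 5 of the 78 tested were higher and 4 were lower, against 13.6% and 11.9% of all genes tested. Their median log2 fold change was 0.01, and for 71 of the 78 the whole 95% interval lay within 1.2-fold of no change. At 24 h, 2 were higher and 5 lower, against 9.67% and 7.76% of all genes, the median was -0.03, and 72 intervals lay within 1.2-fold. Between 12 and 24 h, 0 were higher and 1 was lower, against 1.97% and 3.06% of all genes, the median was -0.05, and 71 intervals lay within 1.2-fold. In that comparison DESeq2 found 0 higher and 2 lower. With edgeR, 21 nuclear members had an unadjusted p under 0.05, a threshold for which no share of all genes is given here.

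Tested for any difference among the 3 times, 12 of the 78 nuclear members and 7 of the 13 mitochondrial ones passed, against 27.4% of all genes tested. No member of either genome both passed and reached 1.5-fold in a comparison, with edgeR or with DESeq2. The fitted values of mt-Nd3, -0.72 at 12 h and 0.72 from 12 to 24 h, lay past 1.5-fold without passing. Of all genes tested, 2.29% passed with at least 1.5-fold at 12 h, 2.27% at 24 h and 0.290% between 12 and 24 h. At an unadjusted p under 0.05, edgeR gave 18 of the 78 nuclear members at 12 h and 15 at 24 h. The share of all genes at this unadjusted threshold is not given here, so these numbers show nothing particular to the members.

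**Figure D3:**
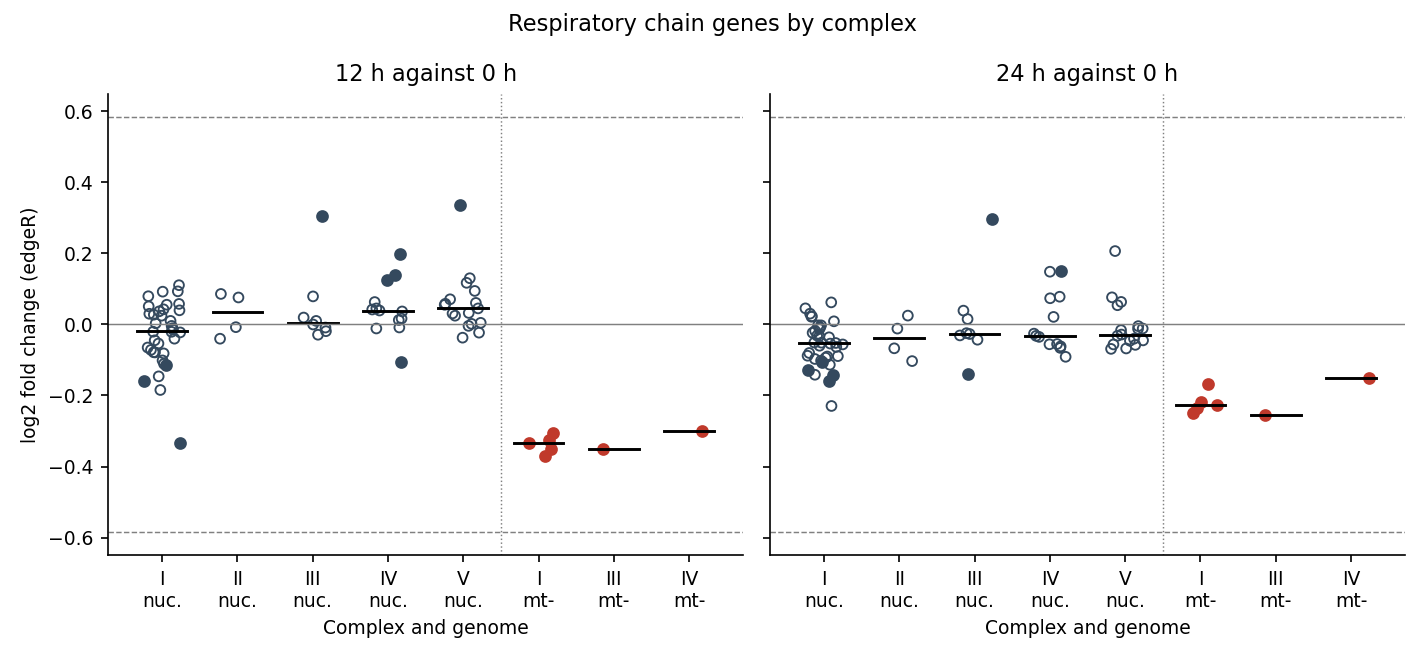
Log2 fold changes against 0 h for the 78 nuclear members tested and the 7 mitochondrial genes of at least 10 CPM, by complex and genome, with members that passed filled, the median of each set as a black line and 1.5-fold as dashed lines. The nuclear medians lie between -0.05 and 0.05 at both times, and all mitochondrial points lie at -0.15 or below.

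Counted per library, the 13 mitochondrial genes gave 1.41, 1.34 and 1.36 counts for each count of the 83 nuclear members at 0 h, 1.03, 1.08 and 1.12 at 12 h, and 1.15, 1.33 and 1.19 at 24 h. At 0 h the log2 ratio of these sums averaged 0.45 ± 0.04 (SD, n = 3), at 12 h it was 0.11 ± 0.06 and at 24 h 0.29 ± 0.11, and the 3 groups did not overlap. The ratio at 12 h was lower than at 0 h by 0.35, and at 24 h by 0.16. These are ratios within a library, so the scaling between libraries does not enter them. The nuclear share of all counts was 1.06% ± 0.0121 at 0 h, then 1.07% ± 0.0255 (12 h) and 1.04% ± 0.0214 (24 h). These are shares of a library, so fewer mitochondrial transcripts per cell and more of all other RNA per cell cannot be told apart.

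**Figure D4:**
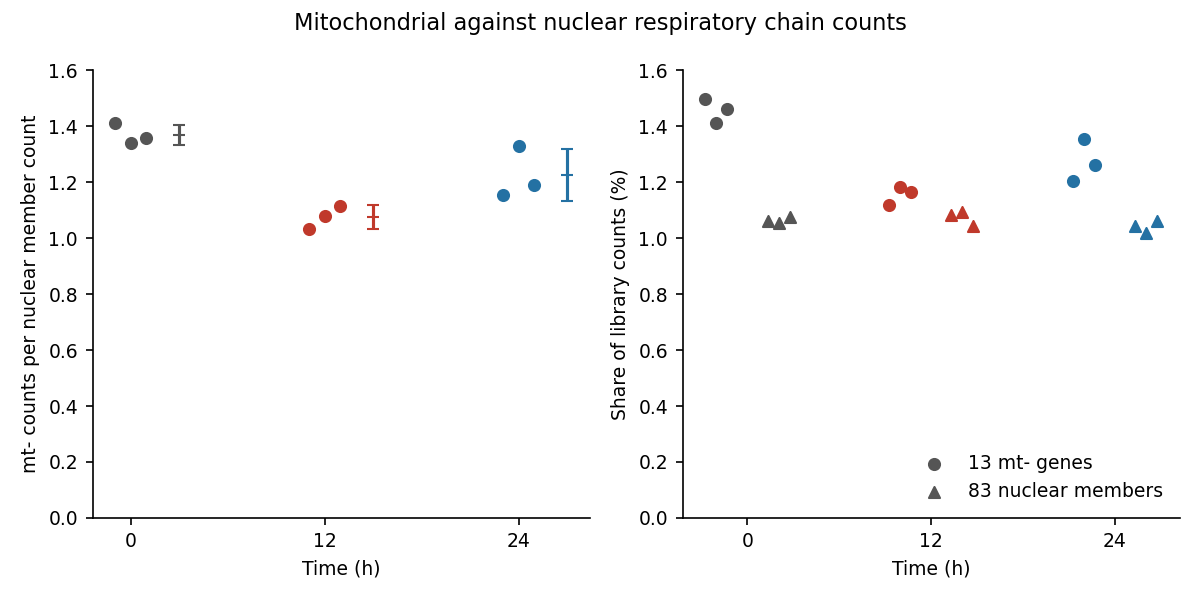
Left, counts of the 13 mitochondrial genes per count of the 83 nuclear members in each library, with the mean and SD beside the points. Right, the share of library counts in percent taken by each class, where the mitochondrial share is lower at 12 h and the nuclear share stays between 1.02% and 1.09%.

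By complex, the nuclear genes of complex I summed to 2537 ± 53.5 CPM at 0 h, to 2503 ± 40.9 CPM after 12 h and to 2433 ± 52.6 CPM after 24 h, and the groups overlapped from one time to the next. Of its 36 nuclear genes, 0 were higher and 3 lower at 12 h, and 0 were higher and 4 lower at 24 h, against 11.9% and 7.76% of all genes tested that were lower at these times. At 24 h, 30 of the 36 had a log2 fold change below 0 and the median was -0.05. The same held for 59 of all 78 nuclear members and for 52.1% of all genes tested, with medians of -0.03 and -0.01. Ndufv2, a core iron-sulfur subunit of the NADH-binding module, passed at both times. It had 176, 169 and 172 CPM at 0 h, 163, 157 and 157 CPM at 12 h, and 159, 158 and 163 CPM at 24 h, a fall of 0.11 ± 0.03 on the log2 scale at 12 h (adjusted p = 0.0233) and of 0.11 ± 0.03 at 24 h (adjusted p = 0.0457). The libraries at 0 h were above all others. The change at 12 h no longer passed without replicate 1 or 3 of 0 h (-0.10 and -0.11) or replicate 2 or 3 of 12 h (-0.11 and -0.10), and the change at 24 h did not pass in 8 of the 9 fits that left out a library, which gave from -0.12 to -0.09, nor with DESeq2, total counts, scaling without the mitochondrial genes, no filter or the replicate block (-0.10 to -0.11), 13 of the 16 alternatives in all.

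Ndufa7, an accessory subunit, went from 61.1, 57.2 and 57.9 CPM at 0 h to 53.3, 49.9 and 54.6 CPM at 12 h, and was back at 56.3, 57.0 and 60.5 CPM at 24 h. It fell by 0.16 ± 0.05 on the log2 scale at 12 h (adjusted p = 0.0239), which did not pass without replicate 1 of 0 h (-0.13), replicate 3 of 0 h (-0.16) or replicate 2 of 12 h (-0.12). The largest fall among the nuclear members at 12 h was that of Ndufs5, an accessory subunit of the membrane arm, named here after its values were seen because its mean of under 10 CPM kept it out of the naming rule. It had 11.5, 10.2 and 9.90 CPM at 0 h and 8.66, 8.04 and 8.22 CPM at 12 h (-0.33 ± 0.09, adjusted p = 0.0108), and did not pass without replicate 1 of 0 h (-0.27). In Ndufs5, 12.7% of the 100-base stretches also occur in another annotated gene.

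Ndufb5 and Ndufb11, which encode accessory subunits of the membrane arm, were lower at 24 h. Ndufb5 had 46.2, 47.2 and 46.6 CPM at 0 h, 46.0, 45.4 and 41.8 CPM at 12 h, and 43.2, 41.1 and 41.2 CPM at 24 h. Ndufb11 had 123, 117 and 116 CPM at 0 h, 117, 116 and 112 CPM at 12 h, and 110, 104 and 108 CPM at 24 h. In both, the libraries at 24 h lay below all those at 0 h. The log2 fold change at 24 h was -0.16 ± 0.05 for Ndufb5 (adjusted p = 0.0291) and -0.14 ± 0.04 for Ndufb11 (adjusted p = 0.0189). Ndufb5 failed to pass in 4 of the 9 fits that left out a library (replicates 2 and 3 of 0 h and of 24 h, -0.14 to -0.16) and Ndufb11 in 3 (replicate 1 of 0 h, and replicates 2 and 3 of 24 h, -0.11 to -0.14). Another gene on the opposite strand overlaps 12.3% of the exonic bases of Ndufb5 and 12.9% of those of Ndufb11, and the reads there cannot be told apart without strand.

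Between 12 and 24 h, Ndufv3, an accessory subunit of the NADH-binding module, was the one nuclear member that passed. It had 137, 127 and 129 CPM at 12 h and 116, 114 and 116 CPM at 24 h, against 128, 118 and 123 CPM at 0 h. The fall of 0.18 ± 0.04 on the log2 scale (adjusted p = 0.0149) did not pass without replicate 1 of 12 h (-0.15) or without any 1 of the 24 h replicates (-0.18 in each).

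The 4 genes of complex II, succinate dehydrogenase, did not pass in any comparison. Over all genes tested, 13.6% were higher and 11.9% lower at 12 h, and 9.67% and 7.76% at 24 h. Between 12 and 24 h the shares were 1.97% and 3.06%. Sdha, the flavoprotein that oxidizes succinate, had 254, 262 and 265 CPM at 0 h, 260, 254 and 245 CPM at 12 h, and 241, 238 and 248 CPM at 24 h, with a change at 24 h of -0.10 ± 0.04 (adjusted p = 0.0597), which passed in 4 of the 16 alternatives (-0.12 to -0.10). Sdhb, the iron-sulfur subunit, had a change of 0.08 at 12 h and 0.02 at 24 h. For Sdhc and Sdhd, which anchor the enzyme in the membrane, the changes were -0.01 and 0.09 at 12 h and -0.07 and -0.01 at 24 h. All 4 intervals lay within 1.2-fold of no change in each comparison.

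In complex III, Uqcrq rose at both times and was the clearest change among the nuclear members. Uqcrq (chromosome 11, 53427922 to 53430831, minus strand, GRCm38) encodes a small subunit of the complex. It had 133, 140 and 138 CPM at 0 h, 163, 171 and 174 CPM at 12 h, and 170, 162 and 172 CPM at 24 h, so the 0 h libraries lay below all others and those of 12 and 24 h overlapped. Its log2 fold change was 0.30 ± 0.04 at 12 h (adjusted p = 3.2e-05) and 0.30 ± 0.04 at 24 h (adjusted p = 4.99e-05). Uqcrq passed at both times under all 16 alternative settings, at 0.28 to 0.33 whichever library was left out. No other gene overlaps its exons and none shares a 100-base stretch with it.

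Of the other 7 nuclear genes of complex III, 0 passed at 12 h, against 13.6% of all genes higher and 11.9% lower. At 24 h, 1 of the 7 passed, as lower, against 7.76% of all genes. That was Uqcrc2, a core protein of the complex, with 191, 185 and 188 CPM at 0 h, 192, 182 and 187 CPM at 12 h, and 172, 163 and 177 CPM at 24 h (-0.14 ± 0.04, adjusted p = 0.019). Its libraries at 24 h lay below all others. It did not pass without replicate 1 of 0 h (-0.13), replicate 3 of 0 h (-0.13), replicate 1 of 24 h (-0.14) or replicate 2 of 24 h (-0.10), and the gene Pdzd9 overlaps 19.7% of its exonic bases on the opposite strand. The remaining 6, among them the Rieske iron-sulfur protein gene Uqcrfs1, had changes of -0.03 to 0.08 at 12 h and of -0.04 to 0.04 at 24 h. So among the members of this complex, mt-Cytb was lower and Uqcrq higher at both times. Uqcrc2 was lower at 24 h only, and 6 nuclear members passed at neither time. Cyc1, the subunit that the name rule leaves out, was also higher at 12 h (0.17 ± 0.04, adjusted p = 0.00303).

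**Figure D5:**
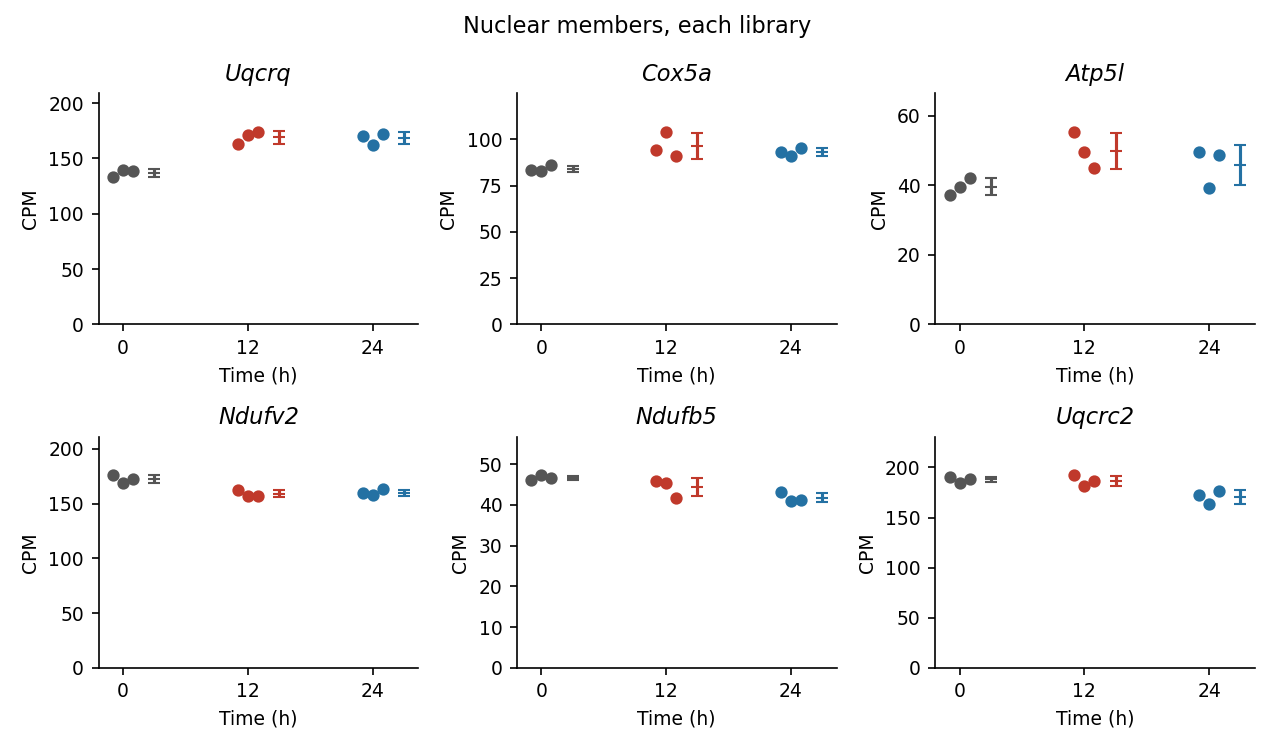
CPM of 6 nuclear members that passed against 0 h at 1 or both times, with axes from 0, 3 libraries per time as points, and the mean and SD beside them. Uqcrq and Cox5a lie higher at 12 and 24 h, Atp5l at 12 h with a wide spread, and Ndufv2, Ndufb5 and Uqcrc2 lie lower by under 0.2 on the log2 scale.

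In complex IV, 3 nuclear genes were higher and 1 was lower at 12 h, and 1 was higher at 24 h, of 13 tested. Over all genes tested, 13.6% were higher and 11.9% lower at 12 h, and 9.67% were higher at 24 h. Cox5a, a subunit that binds next to the mitochondrially encoded core, had 83.4, 82.7 and 86.1 CPM at 0 h, 94.3, 104 and 91.1 CPM at 12 h, and 93.2, 91.1 and 95.6 CPM at 24 h, with every later library above those of 0 h. It rose by 0.20 ± 0.05 on the log2 scale at 12 h (adjusted p = 0.00516) under all 16 alternatives. At 24 h, with 0.15 ± 0.05 (adjusted p = 0.0348), it did not pass in 5 of the 9 fits that left out a library (replicates 1 and 2 of 0 h, or any 24 h replicate, 0.14 to 0.17). A gene on the opposite strand overlaps 12.8% of the exonic bases of Cox5a.

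Cox5b, the zinc-binding subunit, had 104, 101 and 109 CPM at 0 h and 112, 118 and 115 CPM at 12 h (0.14 ± 0.05, adjusted p = 0.041), and did not pass without replicate 1 or 2 of 0 h (0.13 and 0.12), replicate 1 or 2 of 12 h (0.16 and 0.12) or replicate 3 of 24 h (0.14), with total counts (0.13) or with the length trend removed (0.11). Cox8a, the smallest subunit, had 155, 150 and 150 CPM at 0 h and 159, 166 and 170 CPM at 12 h (0.12 ± 0.04, adjusted p = 0.021), and did not pass without replicate 2 of 0 h (0.12), replicate 3 of 0 h (0.12) or replicate 2 of 12 h (0.12), or with only the 2 times fitted (0.12). In both genes the groups did not overlap, with gaps smaller than the spread within a group. Cox7a2l, whose product links complexes III and IV in supercomplexes, had 248, 230 and 230 CPM at 0 h and 217, 219 and 223 CPM at 12 h. Its change of -0.10 ± 0.04 (adjusted p = 0.0496) passed in none of the 9 fits that left out 1 library, which gave from -0.12 to -0.07, nor with no filter (-0.10), only the 2 times fitted (-0.11) or the replicate block (-0.10).

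Where complex IV subunits come as isoforms of different tissues, the general form was the one counted. Cox4i1 had 425 to 502 CPM over the 9 libraries, while Cox4i2 had at most 3 counts. Cox6a1 had 244 to 258 CPM and Cox6b1 174 to 198 CPM, while Cox6a2 and Cox6b2 had at most 8 and 3 counts. Cox7a2 lay between 85.3 and 97.5 CPM, and Cox7a1, the heart and muscle form, between 3.95 and 5.08 CPM. Of these, none passed in any comparison, and Cox4i1 came closest between 12 and 24 h (-0.13 ± 0.04, adjusted p = 0.088).

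In complex V, 1 of 17 nuclear genes passed, as higher at 12 h, against 13.6% of all genes higher and 11.9% lower. At 24 h, 0 of the 17 passed, against 9.67% of all genes higher and 7.76% lower. Atp5l encodes subunit g of the membrane part, which takes part in joining ATP synthases into dimers. It had 37.2, 39.6 and 42.0 CPM at 0 h, 55.4, 49.6 and 44.9 CPM at 12 h, and 49.5, 39.1 and 48.6 CPM at 24 h, and the spread at 12 and 24 h was larger than at 0 h. The rise at 12 h was 0.34 ± 0.08 (adjusted p = 0.00734), the largest among the nuclear members, and did not pass without replicate 1 of 12 h (0.25). At 24 h the value was 0.21 ± 0.08 (adjusted p = 0.105). Without replicate 2 of 24 h it was 0.31 and passed, and it also passed with no filter, with only the 2 times fitted and without replicate 3 of 12 h (0.21 in each).

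The other nuclear genes of complex V stayed close to their 0 h level. Atp5b, the catalytic beta subunit and the nuclear member with the most counts, had 1376, 1412 and 1399 CPM at 0 h, 1440, 1466 and 1375 CPM at 12 h, and 1341, 1302 and 1379 CPM at 24 h, changes of 0.03 and -0.06. Atp5g1, Atp5g2 and Atp5g3 encode the same mature c subunit of the proton ring and differ in the import sequence ahead of it. Their changes were 0.03, -0.00 and 0.09 at 12 h, with adjusted p of 0.608, 0.954 and 0.0586, and -0.03, 0.05 and -0.00 at 24 h. In Atp5g2, 34.7% of the 100-base stretches also occur in another annotated gene.

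Promoters were available for 67 of the 83 nuclear members (RefSeq, GRCm38.p6, 250 bases before to 50 after the start, 300 bases each). They were searched on both strands for 3 short motifs named after factors known to act on respiratory genes: NRF1 (GCATGCGC), ETS factors such as GABPA (CCGGAAG) and YY1 (AAGATGG). Some members had more than 1 promoter, 72 in all. The NRF1 letters occurred for 10 of the 67 members, in 13.9% of the 72 promoters and in 2.71% of all promoters in the table. ETS letters were found for 17 members, in 23.6% of the member promoters and in 8.86% of all promoters. YY1 letters were found for 11 members, in 15.3% of the member promoters and in 6.34% of all. Of the members that passed at 12 h, Atp5l held an NRF1 and 2 ETS matches and Cox8a held 2 ETS matches, while Cox5a, Cox5b, Cox7a2l, Ndufa7, Ndufv2 and Ndufs5 held none of the 3 in this window. Uqcrq was among the members with no matched promoter. The promoter of Atp5l (chr9:44920693-44920992, minus strand, GRCm38.p6) is printed because that gene had the largest rise and holds matches of 2 motifs, which are in capitals.
Atp5l promoter: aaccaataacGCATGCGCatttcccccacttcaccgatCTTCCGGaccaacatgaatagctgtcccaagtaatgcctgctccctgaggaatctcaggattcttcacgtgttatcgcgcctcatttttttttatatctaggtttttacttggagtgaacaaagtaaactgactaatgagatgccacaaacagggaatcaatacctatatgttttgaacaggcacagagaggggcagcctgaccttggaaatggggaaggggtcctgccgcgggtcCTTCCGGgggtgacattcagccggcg
At 12 h the median log2 fold change was 0.02 for the 10 tested members with NRF1 letters and 0.02 for the 55 without, and 0.02 for the 17 with ETS letters and 0.01 for the 48 without. For the 11 with YY1 letters it was 0.03, and 0.01 for the 54 without. At 24 h the medians with and without a match were 0.02 and -0.04 for NRF1, -0.01 and -0.05 for ETS, and -0.04 and -0.03 for YY1. Differences between these medians were not tested. A match is a description of these letters and not a measured binding site.

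Genes around the respiratory chain gave small changes in both directions. The counts of the 6 lists that follow are to be read against all genes tested, of which 13.6% were higher and 11.9% lower at 12 h, 9.67% and 7.76% at 24 h, and 1.97% and 3.06% from 12 to 24 h. Of 45 assembly factors tested, 3 were higher and 2 lower at 12 h, with a median of -0.01, and 2 were higher at 24 h, all below the shares over all genes. Cox11, which helps insert copper into complex IV, was higher at 12 and 24 h (0.32 ± 0.07 at both, adjusted p = 0.00358 and 0.0056). Its values were 11.3, 11.5 and 11.6 CPM at 0 h, 14.4, 14.4 and 14.2 CPM at 12 h, and 13.9, 13.8 and 15.2 CPM at 24 h, with all later libraries above 0 h. Ecsit, an assembly factor of complex I, was higher at 12 h (0.21 ± 0.06, adjusted p = 0.0128), and from 12 to 24 h it was the 1 assembly factor that passed, lower (-0.29 ± 0.06, adjusted p = 0.00741). Cox17, the copper chaperone, was lower at 12 h (-0.33 ± 0.09, adjusted p = 0.0154).

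Among 5 electron carriers and core subunits that the name rule leaves out, 2 were higher and 0 lower at 12 h, and 1 was higher and 1 lower at 24 h. With 5 genes, 1 gene is more than the share of all genes in either direction at either time. Cycs, which is cytochrome c and carries electrons from complex III to IV, was higher at 12 h (0.22 ± 0.05, adjusted p = 0.00611) and at 24 h (0.20 ± 0.05, adjusted p = 0.0152). Cyc1, the cytochrome subunit of complex III, was higher at 12 h (0.17 ± 0.04, adjusted p = 0.00303). Etfdh, which feeds electrons from fatty acid oxidation into the ubiquinone pool, was lower at 24 h (-0.13 ± 0.04, adjusted p = 0.0293).

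Of 28 genes for mitochondrial transcription and RNA handling, 2 were higher and 1 lower at 12 h, and 1 was higher and 2 lower at 24 h, with medians of 0.00 and -0.03. At 12 h both counts lay below the shares over all genes (13.6% and 11.9%). Tfam, which packages mitochondrial DNA and starts its transcription, had 40.1, 38.6 and 38.7 CPM at 0 h, 45.8, 44.8 and 44.2 CPM at 12 h, and 41.5, 41.8 and 40.3 CPM at 24 h. It was higher at 12 h (0.20 ± 0.04, adjusted p = 0.00341), the time at which the mitochondrial messenger RNAs were lowest. The polymerase gene Polrmt had a change of -0.00 at 12 h (adjusted p = 0.988) and the RNA-binding protein gene Lrpprc one of -0.09 (adjusted p = 0.162); both were looked up after their values were seen. Elac2, which cuts tRNAs out of the precursor, was lower at 12 h (-0.13 ± 0.04, adjusted p = 0.0331) and at 24 h (-0.18 ± 0.04, adjusted p = 0.00762). Tfb1m, which methylates mitochondrial ribosomal RNA, was higher at 24 h (0.29 ± 0.08, adjusted p = 0.0155).

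Of 10 regulators of mitochondrial biogenesis tested, 4 were higher and 0 lower at 12 h, against 13.6% and 11.9% of all genes, and 1 was higher at 24 h, against 9.67%. These were Gabpb1 (0.24 ± 0.07, adjusted p = 0.0199), Nrf1 (0.21 ± 0.06, adjusted p = 0.0182), Gabpa (0.14 ± 0.04, adjusted p = 0.014), which overlaps the member Atp5j, and Tfam, which the list shares with the one above. At 24 h it was Gabpb1 (0.22 ± 0.07, adjusted p = 0.0499). Of 13 genes of the TCA cycle, which supplies the chain with NADH and succinate, 3 were higher and 1 lower at 12 h, and 0 were higher and 2 lower at 24 h, against the same 13.6% and 11.9%, then 9.67% and 7.76%. Among them Idh3a was higher (0.16 ± 0.05, adjusted p = 0.0376) and Idh3g lower (-0.13 ± 0.04, adjusted p = 0.0207) at 12 h, although both encode subunits of the same isocitrate dehydrogenase. Idh3g was lower at 24 h too (-0.16 ± 0.04, adjusted p = 0.00895). Dld was higher at 12 h (0.14 ± 0.04, adjusted p = 0.00821).

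For the 13 genes of coenzyme Q synthesis, which make the ubiquinone that shuttles electrons between complexes, 3 were higher and 1 lower at 12 h, and 1 was higher and 1 lower at 24 h. The shares over all genes were 13.6% and 11.9%, then 9.67% and 7.76%. Coq8a, a kinase-like protein of this pathway, was lower at 12 h (-0.47 ± 0.13, adjusted p = 0.0151) and at 24 h (-0.46 ± 0.13, adjusted p = 0.0231). Pdss1, a subunit of the enzyme that makes the side chain, was higher at 12 h (0.39 ± 0.10, adjusted p = 0.0105), as was Coq7 (0.29 ± 0.10, adjusted p = 0.0364). These lists had medians within 0.1 of 0 on the log2 scale in each comparison, and their genes were not refitted without single libraries.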

How the data were processed

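The authors made TruSeq mRNA libraries from total RNA. They used Cutadapt to trim the paired-end reads, STAR to align them to GRCm38.p6, and featureCounts with GENCODE genes to count them. The values the authors deposited are raw counts per gene, in 1 table for 9 libraries. The table's 14 empty unnamed columns were not used. Strand and multi-mapping settings are not given in the sources used here, and no batch is named. The labels' time gave each library's group.

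In edgeR 4.0.16 (R 4.3.3), filterByExpr removed genes of low counts and TMM set the scaling. One glmQLFit over all 9 libraries was tested with glmQLFTest, with Benjamini-Hochberg adjustment over 11373 genes. DESeq2 1.42.0 was an alternative. Each SE is the log2 fold change divided by the root of its F. The steps were tested on simulated data. Exonic lengths, overlaps and transcripts came from GENCODE M21, in which all 96 members had the coordinates of the table, and promoters from RefSeq.

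Members, gene lists and motifs were chosen with earlier results of these data known. Text names all mitochondrial members, per complex up to 3 passing rises and 3 passing falls against 0 h among nuclear members of at least 10 CPM whose groups did not overlap, passing nuclear members between 12 and 24 h, isoform families, Cox7a2l and the Sdh genes, and up to 3 passing genes per list. Replicates differed by more than counting noise, at chi-square values per degree of freedom of 3.81 to 10.5. P-values cover the spread between wells of 1 line. Some genes that the rule covers are not reported here.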

Additional observations from a re-analysis of the deposited data

How the results depend on the processing

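The numbers of members that passed were recomputed with DESeq2, total counts in place of TMM, scaling without the mitochondrial genes, no filter, only the 2 times compared, the replicate number as a block, a length trend removed, and without each library. The number of mitochondrial genes that passed against 0 h (7 at both times), all medians and all differences in the log2 ratio stayed close to their values. No named gene that passed changed sign. For 24 h against 12 h, where 1 mitochondrial gene passed, the number was 2 with DESeq2, 2 with total counts, 3 with no filter, 2 with only the 2 times and 2 with the length trend removed, and 0 to 2 without 1 library. The nuclear number for that comparison, 1, became 2 with DESeq2, 2 with total counts, 5 with no filter and 2 with the length trend removed, and went from 0 to 9 without 1 library, with 9 reached without replicate 3 of 12 h. Nuclear members that passed at 12 h, 9, numbered from 4 to 13 without 1 library, with 4 reached without replicate 1 of 0 h or replicate 2 of 12 h. At 24 h, 7 became 2 to 10, with 2 reached without replicate 2 or 3 of 24 h. Among the 61 nuclear members free of overlaps and copies over 10%, an alternative chosen after seeing the data, 3 passed at 24 h.

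With the replicate block, 3 nuclear members passed for 24 h against 12 h. Same-numbered libraries correlated at -0.07 to 0.13 after removing the means of each time, and 4 of the 9 libraries correlated best with their own number, so the numbers were not taken as pairs. For single named genes, 76 values lost and 27 gained the threshold under an alternative, and 1718 kept their side of it. With 3 libraries per time, most nuclear changes that passed were under 1.2-fold, and many no longer passed without 1 library. The 6 low mitochondrial genes had wider intervals, and of them only mt-Co2 passed under any alternative, at 12 h.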
